A study of Homo sapiens with 12 samples.

Results

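The genes described here are 46 genes of mitosis and the spindle, out of 19027 gene symbols in the RNA table of the series. They were chosen by name and function, not by any measured value, but with earlier results of these data known. The list holds CDK1 and its cyclins, mitotic kinases, spindle checkpoint proteins, kinesins, and centromere and kinetochore proteins. It also holds proteins of spindle assembly and cytokinesis, condensin subunits, TOP2A and MKI67. All 46 were found in the tables, and all 46 passed the low-count filter in both assays, KIF20B in footprints only through its vehicle libraries. The tumours were xenografts of 22Rv1, an established human prostate cancer line, grown under the skin of the hind flank of male NSG mice. NSG mice lack mature T, B and natural killer cells but keep their own stroma, vessels and myeloid cells. The mice were injected intraperitoneally with zotatifin at 0.3 mg/kg in dextrose solution, or with the dextrose vehicle alone, and tumours were frozen 6 h later. Ribosome footprints and total RNA were sequenced from the lysates, with 3 libraries for each treatment and assay, giving 12 in all. The question was how a block of the helicase eIF4A changes the translation and the RNA of each gene in these tumours.

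Mitotic genes are transcribed in G2 and M phase and kept silent in resting cells. Many carry a cell cycle genes homology region, or CHR element, near the transcription start, which the DREAM and MuvB complexes bind, together with CCAAT boxes bound by NF-Y. The cyclins and their partner CDK1 start mitosis, the kinetochore and checkpoint proteins hold chromosomes on the spindle until all are attached, and CDC20 and the anaphase-promoting complex end it. eIF4A unwinds mRNA leaders ahead of the scanning ribosome, and zotatifin clamps it onto purine-rich RNA, which hinders initiation on mRNAs that carry such stretches.

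The promoters show what most of these genes share, a property that the choice of genes did not use. RefSeq windows of 300 bases (250 before the transcription start and 50 after it, build GRCh38.p14) matched 41 of the 46 genes. The genes without a window were TPX2, TTK, AURKA, FOXM1 and BUB3. The searched motifs were TTTGAA, the CHR element, and CCAAT, each on both strands. The stretches below are the 120 bases before the start of 7 genes from different roles, with every CHR and CCAAT match on either strand in capitals. They are examples that hold both motifs, as did the 300-base windows of 25 of the 41 genes. KIF2C and CENPE had neither motif.
CCNB2, chr15:59105026-59105145, plus strand: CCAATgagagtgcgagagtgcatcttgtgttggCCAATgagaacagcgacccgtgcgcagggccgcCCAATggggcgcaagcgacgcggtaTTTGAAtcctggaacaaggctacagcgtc
PLK1, chr16:23678769-23678888, plus strand: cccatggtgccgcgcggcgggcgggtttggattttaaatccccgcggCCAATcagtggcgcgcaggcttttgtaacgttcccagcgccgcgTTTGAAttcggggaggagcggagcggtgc
CDC20, chr1:43358861-43358980, plus strand: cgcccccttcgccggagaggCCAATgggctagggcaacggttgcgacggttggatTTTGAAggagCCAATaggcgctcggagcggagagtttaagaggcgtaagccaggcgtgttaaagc
KIF11, chr10:92593010-92593129, plus strand: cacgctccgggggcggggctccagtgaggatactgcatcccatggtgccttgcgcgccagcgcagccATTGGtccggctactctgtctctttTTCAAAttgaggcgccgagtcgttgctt
CDCA8, chr1:37692396-37692515, plus strand: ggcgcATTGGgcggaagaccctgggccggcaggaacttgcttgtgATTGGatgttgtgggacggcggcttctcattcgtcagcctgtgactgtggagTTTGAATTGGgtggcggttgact
PRC1, chr15:90994536-90994655, minus strand: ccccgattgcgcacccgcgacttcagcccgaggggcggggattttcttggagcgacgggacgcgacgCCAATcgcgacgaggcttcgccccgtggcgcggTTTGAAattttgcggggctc
MKI67, chr10:128126424-128126543, minus strand: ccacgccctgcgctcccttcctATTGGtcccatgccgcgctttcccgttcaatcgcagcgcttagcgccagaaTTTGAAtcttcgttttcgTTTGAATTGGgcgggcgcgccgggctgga
In CDCA8 and MKI67 a CHR match runs into a CCAAT match on the other strand, and both share a base. A CHR match began after the start in 9 genes. The 4 shown here, each in a stretch of 30 bases, were chosen because their footprints lay lower in every zotatifin tumour. The others were NUSAP1, CDK1, DLGAP5, CENPF and CDC25C, whose footprints overlapped between treatments. That contrast follows from the choice and is not a result about the motif.
MAD2L1, chr4:120066807-120066836, minus strand: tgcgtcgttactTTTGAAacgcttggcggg
NUF2, chr1:163321958-163321987, plus strand: ggaggcggcaagTTTGAAaagtgatgacgg
ECT2, chr3:172750746-172750775, plus strand: agagcagcttagttTTTGAAtcggttgtgg
KIF20B, chr10:89701602-89701631, plus strand: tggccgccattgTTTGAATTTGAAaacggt

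A CHR match was found in 32 of the 41 genes (78.0%), against 15.7% of all genes of the RNA table with a window, 40.4% of 99 other mitosis genes and 1 of 35 genes of DNA replication. CCAAT was found in 32 of the 41 as well (78.0%), against 42.4% of all genes, and 21 genes had at least 2 CCAAT matches (51.2%, against 14.8%). Both motifs stood in the same window for 25 genes (61.0%, against 6.55%). The variant TTCGAA was in 3 of the 41. Over the 52 windows, some of which overlap where a gene has several starts, the median CHR match began 28 bases before the start (position -28), and 32 of 48 matches (66.7%) began within 50 bases of it, against 26.0% for all genes. CCAAT matches had a median position of -85, and 39 of 75 began between 100 and 50 bases before the start, against a median of -96 and 3372 of 10585 matches for all genes. A match is a run of letters and not a shown binding site.

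**Figure D1:**
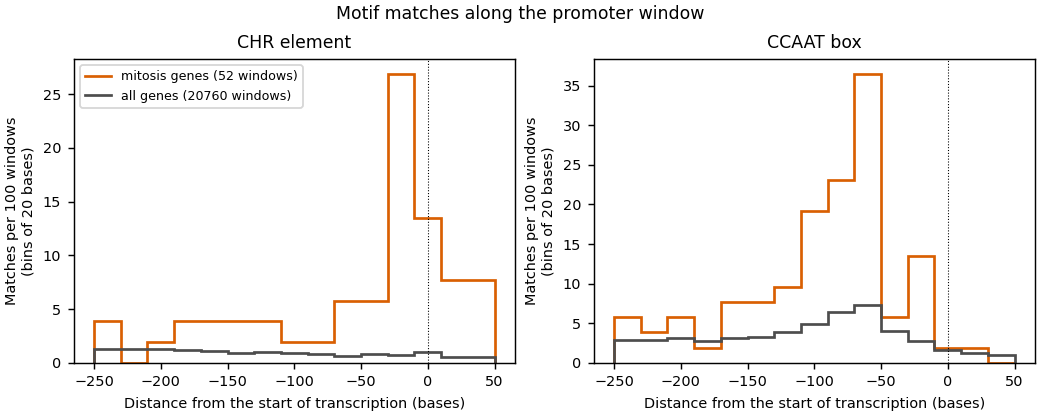
Matches of the CHR element (left) and the CCAAT box (right) per 100 windows, in bins of 20 bases along the distance from the transcription start in bases, for the 52 windows of the mitosis genes and the 20760 windows of all genes. The CHR matches of the mitosis genes pile up close to the start, with a median of -28, and the CCAAT matches further upstream, with a median of -85.

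Total counts ran from 5761921 to 7121802 in the vehicle RNA libraries and from 6594884 to 8153674 in the zotatifin RNA libraries. The footprint libraries were shallower, with 1592316 to 2013968 counts for vehicle and 838135 to 1540867 for zotatifin, the lowest being tumour zotatifin 2. The epithelial genes KRT8, KRT18 and EPCAM were present in every library, with footprint changes of 0.10 ± 0.12, 0.37 ± 0.11 and -0.33 ± 0.14, of which that of KRT18 passed (edgeR adjusted p = 0.0459). Of the fibroblast markers 7 of 10 could be tested in footprints and 5 of these fell with zotatifin, as did 4 of 7 in RNA. Over all genes, 3.92% were called lower in footprints and 0.907% in RNA. FBN1 and LUM reached the low-count filter level in every vehicle footprint library but not in zotatifin 3, with 8 and 9 counts there. A footprint call of either is therefore given as a description. The summed footprint level of the fibroblast list was 494 to 864 CPM with vehicle and 157 to 285 CPM with zotatifin. Its summed RNA was 244 to 402 CPM and 85.5 to 157 CPM. The myeloid list had a summed footprint level of 18.9 to 85.1 CPM with vehicle and 8.4 to 11 CPM with zotatifin. CD14 had 0 footprints in every library. The 2 myeloid genes tested, PTPRC and CSF1R, were called lower in footprints. Both passed the low-count filter only through the vehicle libraries, where they are high, so these calls are given as a description. None of the 6 endothelial markers had enough footprints to test. Among red blood cell genes 2 of 5 tested were called lower in footprints, beside 3.92% of all genes. HBG1 and HBE1 reached the low-count filter level in every vehicle library but not in zotatifin 1, with 5 and 6 counts there. A call of either is therefore given as a description. The 46 genes are human genes of dividing cells, and whether a difference in non-tumour cells moved them was not tested. In bulk tumours, fewer dividing cells and less RNA per dividing cell cannot be told apart.

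At 6 h few of the mitotic genes passed the test. Footprints of MAD2L1 fell, RNA of TPX2 rose, and the translational efficiency (TE) of TPX2, its footprints relative to its RNA, fell. KIF20B was also called lower in footprints, but it passed the low-count filter only through the group where it is high, so its call is given as a description. No other of the 46 genes passed an adjusted p of 0.05 in these 3 comparisons. With DESeq2, MAD2L1 was the one call in footprints, and TPX2 the one call in RNA and in TE. In footprints, 2 of the 46 genes were called (4.35%), both lower, beside 7.14% of the 9544 genes tested (3.22% higher and 3.92% lower). In RNA 1 was called (2.17%), higher, beside 1.72% of 13118 genes (0.808% higher and 0.907% lower). In TE 1 was called (2.17%), lower, beside 1.69% of 9454 genes (0.476% higher and 1.22% lower). Calls are from edgeR's quasi-likelihood test with Benjamini-Hochberg adjustment over all genes tested. The shares of the mitotic genes were thus near or below those of all genes. The median log2 change over the 46 was -0.0094 in footprints (all genes 0.0030), 0.067 in RNA (all genes -0.0023) and -0.10 in TE (all genes 0.016). At an unadjusted p under 0.05 the counts were 9 in footprints (19.6%, all genes 22.1%), 10 in RNA (21.7%, all genes 18.3%) and 5 in TE (10.9%, all genes 15.3%).

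The footprints and the RNA of a tumour came from the same lysate, and a fit with the tumour as a block took this into account. In that fit the TE of 5 genes fell (10.9%) and that of none rose, beside 8.66% of all genes called, 5.05% lower and 3.62% higher. The 5 were TPX2, ECT2, BUB3, MAD2L1 and NUF2, and 13 of the 46 genes had an unadjusted p under 0.05 (28.3%, all genes 22.1%). TE values of the zotatifin tumours lay below all vehicle tumours for 11 genes (23.9%, beside 15.5% of all genes) and above them for 4 (8.7%, beside 10.8%). RNA lay above all vehicle tumours for 11 genes (23.9%, beside 12.3%) and below for 3 (6.52%, beside 10.9%). Footprints lay above for 4 (8.7%, beside 12.9%) and below for 6 (13%, beside 13.5%).

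**Figure D2:**
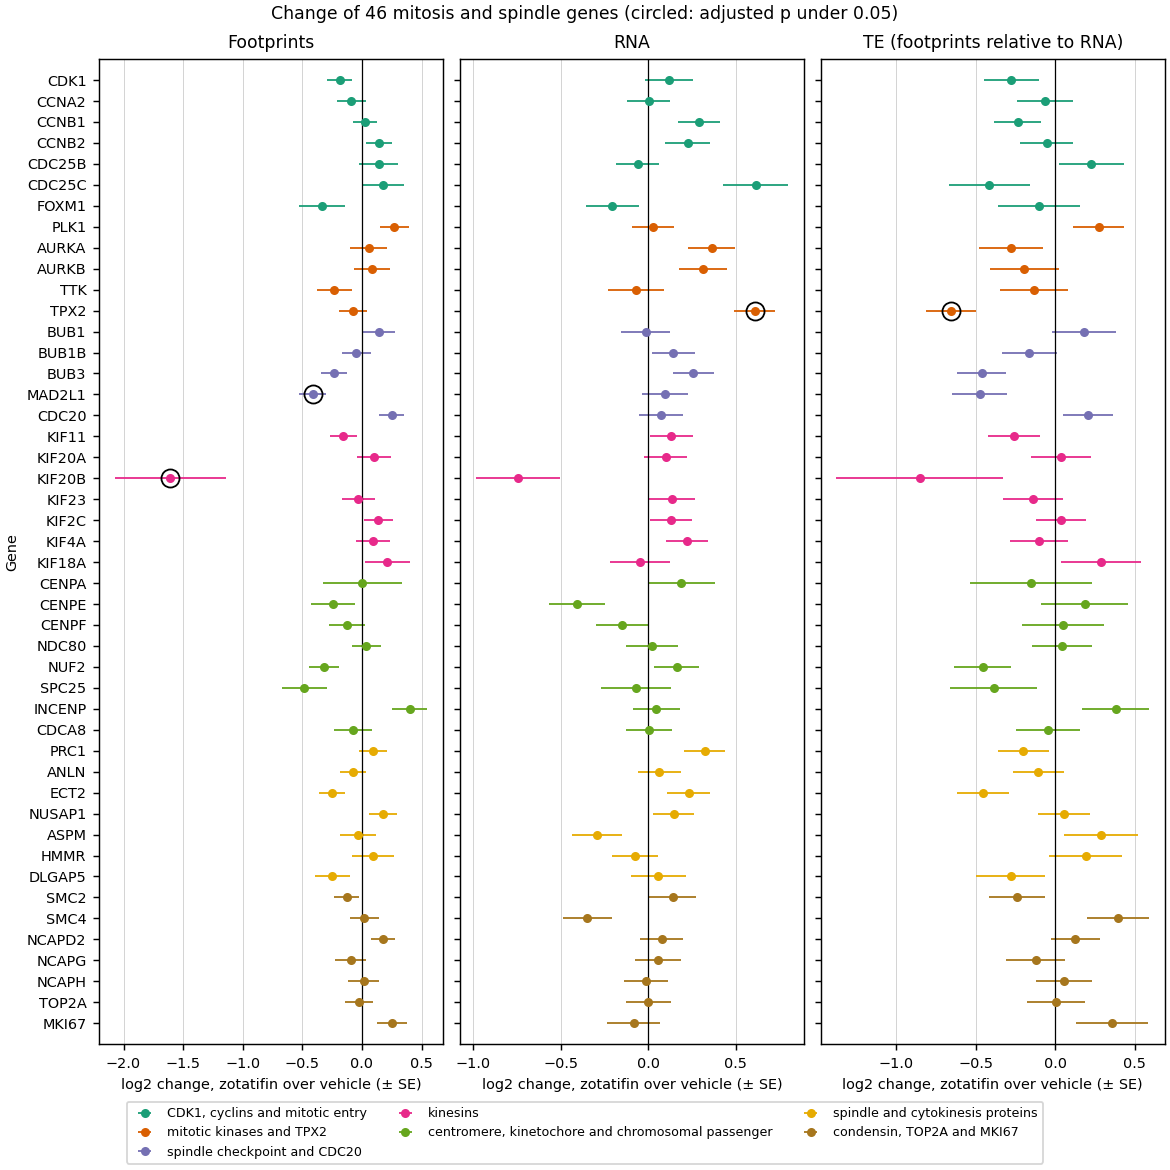
Log2 change of each of the 46 genes, zotatifin over vehicle, with its standard error, in footprints (left), RNA (middle) and TE (right), coloured by role. Genes with an adjusted p under 0.05 are circled: MAD2L1 and KIF20B in footprints, TPX2 in RNA and TPX2 in TE, while most others lie within 0.5 of 0.

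CDK1 is the kinase whose activation starts mitosis, cyclins A and B activate it, CDC25B and CDC25C remove its inhibitory phosphates, and FOXM1 drives transcription of the set. None of these 7 genes was called by edgeR in any of the 3 comparisons. Those with an unadjusted p under 0.05 numbered 0 in footprints, 2 in RNA and 0 in TE, beside 22.1%, 18.3% and 15.3% of all genes. Footprints of CDK1 (chr10:60778331-60794852) were 417, 396 and 382 CPM with vehicle and 318, 325 and 401 CPM with zotatifin. CPM express a count relative to the library total, scaled for library composition. Its RNA was 64.0, 86.4 and 65.4 CPM with vehicle and 70.7, 79.6 and 83.7 CPM with zotatifin. The groups overlapped in both assays, with log2 changes of -0.19 ± 0.11 (SE) in footprints and 0.12 ± 0.14 in RNA. For CCNB1, which encodes cyclin B1 (chr5:69167150-69178245), the RNA was 118, 133 and 123 CPM with vehicle and 144, 166 and 147 CPM with zotatifin. All zotatifin tumours were above all vehicle tumours, but the change of 0.29 ± 0.12 did not pass (adjusted p = 0.196). Its footprints overlapped, at 411, 411 and 390 CPM and 442, 384 and 405 CPM, so that the log2 ratio of footprints to RNA went from 1.81, 1.62 and 1.66 to 1.61, 1.21 and 1.46 with no overlap (change in TE -0.24 ± 0.15, adjusted p = 0.475). CDC25C RNA was 14.3, 21.8 and 16 CPM with vehicle and 25.0, 24.9 and 29.8 CPM with zotatifin. Its change of 0.61 ± 0.18 was as large as that of TPX2, with an adjusted p of 0.0863. It passed in 3 of 12 alternatives, whose adjusted p ranged from 0.0262 to 0.282. These were the fit without vehicle 2 (adjusted p = 0.0262), that with no low-count filter and that with a replicate block over treatments. No label pairs the tumour numbers across treatments, so the last of these has no stated basis in the design. FOXM1 footprints were 40.3, 35.5 and 31.8 CPM against 30.4, 30.7 and 25.9 CPM, lower in each zotatifin tumour, with a change of -0.34 ± 0.19 (adjusted p = 0.308). CCNA2, CCNB2 and CDC25B had footprint changes between -0.088 and 0.14 and RNA changes between -0.061 and 0.23.

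Among the kinases and their activator TPX2, only TPX2 was called. TPX2 (chr20:31739290-31801800) encodes the spindle assembly factor that binds and activates aurora A. Its RNA was 164, 176 and 179 CPM with vehicle and 263, 255 and 273 CPM with zotatifin. The groups stood far apart, and the RNA rose by 0.61 ± 0.12 on the log2 scale (edgeR adjusted p = 0.0124). Its footprints overlapped, at 156, 182 and 180 CPM with vehicle and 159, 145 and 182 CPM with zotatifin (change -0.076 ± 0.12, adjusted p = 0.757). The log2 ratio of footprints to RNA was therefore -0.076, 0.046 and 0.0078 with vehicle and -0.73, -0.82 and -0.59 with zotatifin. All 3 zotatifin tumours lay below all 3 vehicle tumours, and TE fell by 0.66 ± 0.16 (adjusted p = 0.0275, and 2.25e-04 with the tumour as a block). The RNA call was lost without vehicle 1 (adjusted p = 0.105), vehicle 3 (0.0638) or zotatifin 3 (0.0562). The TE call was lost without vehicle 1 (adjusted p = 0.0822), vehicle 2 (0.129), vehicle 3 (0.107) or zotatifin 1 (0.133), and its adjusted p ranged from 2.25e-04 to 0.133 over 13 alternatives.

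PLK1 (chr16:23678889-23690367), the polo-like kinase of mitotic entry and cytokinesis, had footprints of 131, 123 and 115 CPM with vehicle and 136, 147 and 161 CPM with zotatifin. Its RNA overlapped, at 163, 165 and 140 CPM and 157, 153 and 166 CPM. Footprints and TE thus lay higher in every zotatifin tumour, by 0.27 ± 0.12 and 0.27 ± 0.16, and neither passed (adjusted p = 0.174 and 0.434). For AURKA (chr20:56369390-56392215), which encodes aurora A, the RNA was 38.8, 41.4 and 38.4 CPM with vehicle and 50.7, 53.9 and 48 CPM with zotatifin. These groups did not overlap (change 0.36 ± 0.13, adjusted p = 0.157), while its footprints did, at 52.1, 73.8 and 62.9 CPM and 62.5, 62.5 and 69.2 CPM. AURKB, the kinase of the chromosomal passenger complex, had changes of 0.31 ± 0.14 in RNA and 0.084 ± 0.15 in footprints, and TTK, the checkpoint kinase MPS1, of -0.070 ± 0.16 and -0.23 ± 0.15. No change in either gene passed the test.

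The checkpoint proteins stop CDC20 from activating the anaphase-promoting complex while a kinetochore is unattached. Here 1 of 5 genes was called in footprints, and 2 in TE with the tumour as a block. The shares of all genes tested were 7.14% and 8.66%. MAD2L1 (chr4:120055623-120066848) encodes MAD2, the protein that captures CDC20. Its footprints were 274, 246 and 234 CPM with vehicle and 195, 167 and 201 CPM with zotatifin. No zotatifin tumour reached the lowest vehicle tumour, and footprints fell by 0.41 ± 0.11 on the log2 scale (edgeR adjusted p = 0.0229). Its RNA overlapped, at 109, 105 and 91.4 CPM and 90.8, 120 and 115 CPM (change 0.093 ± 0.13). The log2 ratio went from 1.33, 1.23 and 1.36 to 1.10, 0.48 and 0.81, a TE change of -0.48 ± 0.17 (adjusted p = 0.157, and 0.0172 with the tumour as a block). The footprint call was lost without vehicle 1 (adjusted p = 0.166), zotatifin 1 (0.0588) or zotatifin 2 (0.0783), with a range of 0.0102 to 0.166 over 12 alternatives.

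BUB3 (chr10:123154402-123170467) brings BUB1 and BUBR1 to kinetochores. Its footprints were 216, 199 and 221 CPM with vehicle and 180, 172 and 186 CPM with zotatifin, and its RNA 96.3, 98.5 and 104 CPM and 112, 120 and 125 CPM. Footprints lay lower and RNA higher in every zotatifin tumour, by -0.24 ± 0.11 and 0.26 ± 0.12, and neither passed alone (adjusted p = 0.193 and 0.247). Its TE change was -0.46 ± 0.15 (adjusted p = 0.116), and it fell in the fit with the tumour as a block (adjusted p = 0.0118). That was the only call among the 13 alternatives to the TE fit, whose adjusted p went up to 0.31. The activator CDC20, which this checkpoint restrains, had footprints of 227, 228 and 215 CPM with vehicle and 244, 275 and 279 CPM with zotatifin, higher in every zotatifin tumour (0.25 ± 0.11, adjusted p = 0.156). BUB1 and BUB1B had footprint changes of 0.14 ± 0.13 and -0.048 ± 0.12.

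**Figure D3:**
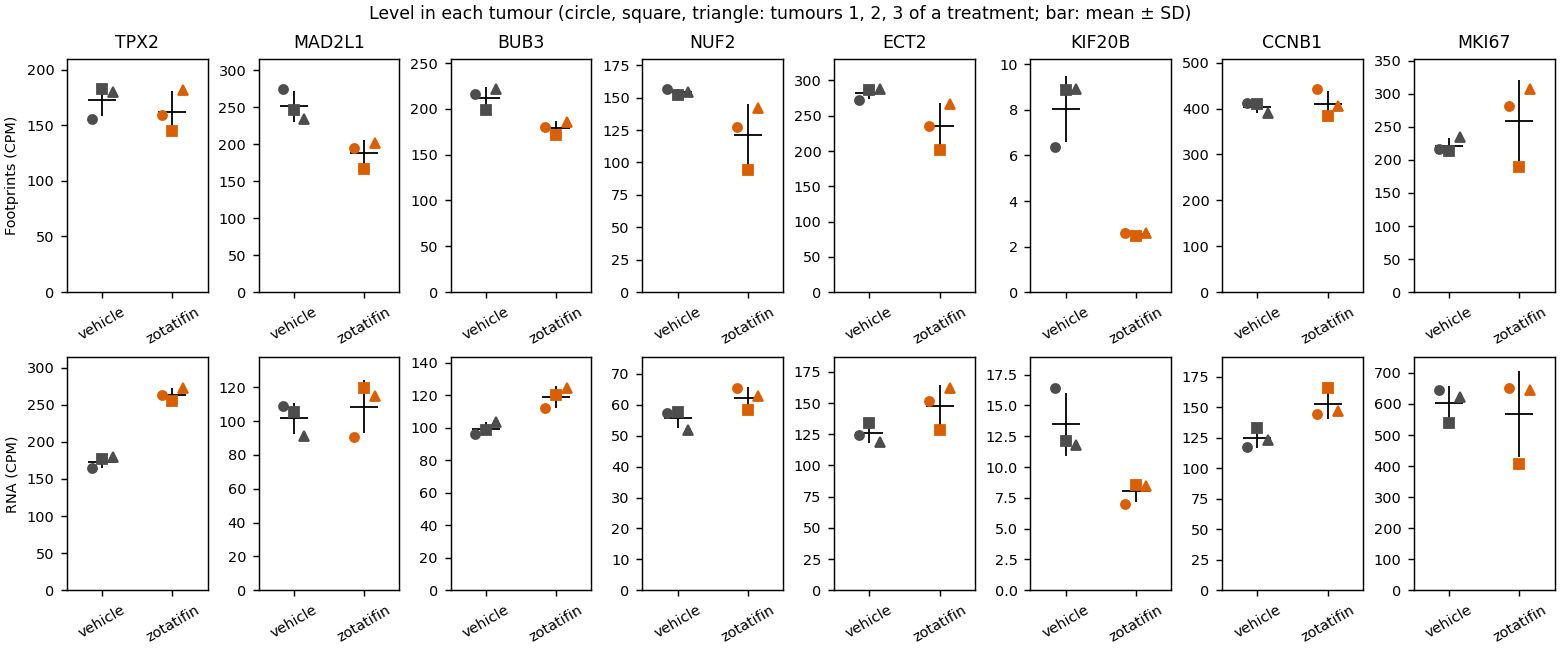
Footprint level (top) and RNA level (bottom) in CPM in each tumour for 8 genes, with vehicle tumours in grey, zotatifin tumours in orange and the mean ± SD of 3 tumours as bars. RNA of TPX2 rises from 164 to 179 CPM to 255 to 273 CPM while its footprints overlap, and footprints of MAD2L1, BUB3, NUF2, ECT2 and KIF20B lie below every vehicle tumour.

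The kinesins move chromosomes and microtubules. Of 7 kinesin genes, KIF20B, which encodes a kinesin of cytokinesis, was the one called. KIF20B (chr10:89701590-89774934) had few reads, with 13, 16 and 14 footprint counts with vehicle and 3, 2 and 4 with zotatifin. These correspond to 6.39, 8.88 and 8.90 CPM and 2.60, 2.45 and 2.59 CPM, a log2 change of -1.61 ± 0.47 (edgeR adjusted p = 0.0328). The gene met the low-count filter in the vehicle libraries alone, so that a gene with such counts had to differ, and this call does not support a fall. Its RNA also lay lower in every zotatifin tumour, at 16.4, 12.1 and 11.8 CPM against 7.01, 8.57 and 8.47 CPM (-0.75 ± 0.24, adjusted p = 0.108), and its TE change of -0.85 ± 0.52 did not pass. The footprint call was lost in each of the 4 fits that left out 1 library and still tested the gene, which were those without vehicle 1, zotatifin 1, zotatifin 2 or zotatifin 3 (adjusted p 0.0792 to 0.109). Without vehicle 2 or vehicle 3 it no longer passed the low-count filter. KIF11, the motor that pushes spindle poles apart, had footprints of 225.6, 217 and 191 CPM and 187, 177 and 202 CPM, and a ratio to RNA that was lower in every zotatifin tumour (TE -0.26 ± 0.16, adjusted p = 0.469). KIF2C and KIF4A, a microtubule depolymerase and a chromokinesin, had RNA above every vehicle tumour with changes of 0.13 ± 0.12 and 0.22 ± 0.12, and KIF20A too, at 0.10 ± 0.12. KIF23, the centralspindlin motor, and KIF18A, which damps chromosome movements, had footprint changes of -0.031 and 0.21.

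At the centromere and kinetochore, CENPA is the histone variant that marks centromeres, and NDC80, NUF2 and SPC25 are subunits of the complex that grips microtubules. None of the 8 genes of this role was called by edgeR in footprints, in RNA or in the main TE fit. Those with an unadjusted p under 0.05 numbered 3, 1 and 1, beside 22.1%, 18.3% and 15.3% of all genes. NUF2 was called in TE with the tumour as a block. NUF2 (chr1:163321954-163355759) had footprints of 156, 152 and 154 CPM with vehicle and 128, 94.4 and 142 CPM with zotatifin. Its RNA was 57.4, 57.8 and 51.9 CPM and 65.5, 58.4 and 62.7 CPM, so that footprints lay lower and RNA higher in every zotatifin tumour. The footprint change was -0.32 ± 0.13 (adjusted p = 0.131) and the TE change -0.46 ± 0.18 (adjusted p = 0.201, and 0.0393 with the tumour as a block, the one call among 13 alternatives that reached 0.404). SPC25 had footprints of 45.7, 50.5 and 37.5 CPM against 24.3, 33.1 and 37.5 CPM, a change of -0.48 ± 0.19 (adjusted p = 0.12). Footprints of their partner NDC80 overlapped, at 121, 126 and 137 CPM against 126, 118 and 145 CPM (0.036 ± 0.12). INCENP, the scaffold of the chromosomal passenger complex, had the highest footprint change of the 46 genes. Its values were 58.0, 59.4 and 76.9 CPM with vehicle and 92.9, 76.0 and 84.1 CPM with zotatifin, which overlapped (0.40 ± 0.15, adjusted p = 0.0989). CDCA8, another subunit of that complex, had a footprint change of -0.073 ± 0.16. The motor CENPE had RNA of 78.9, 59.3 and 59.4 CPM with vehicle and 53.1, 37.5 and 57.8 CPM with zotatifin, lower in every zotatifin tumour (-0.41 ± 0.16, adjusted p = 0.173).

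Of the 7 spindle and cytokinesis proteins, none was called by edgeR in footprints, in RNA or in the main TE fit. Those with an unadjusted p under 0.05 numbered 1, 1 and 1, beside 22.1%, 18.3% and 15.3% of all genes. ECT2 was called in TE with the tumour as a block. ECT2 (chr3:172750726-172829265) is the exchange factor that activates RhoA at the cleavage furrow. Its footprints were 272, 287 and 287 CPM with vehicle and 236, 201 and 267 CPM with zotatifin, lower in every zotatifin tumour (-0.25 ± 0.11, adjusted p = 0.176). Its RNA was 124, 134 and 119 CPM against 151, 128 and 162 CPM and overlapped. The log2 ratio went from 1.13, 1.10 and 1.27 to 0.64, 0.65 and 0.72, and the TE change was -0.45 ± 0.16 (adjusted p = 0.157, and 0.00698 with the tumour as a block, the one call among 13 alternatives that reached 0.367). PRC1, which bundles the midzone microtubules, had RNA of 157, 184 and 172 CPM with vehicle and 220, 218 and 203 CPM with zotatifin, higher in every zotatifin tumour (0.32 ± 0.12, adjusted p = 0.151). NUSAP1, a microtubule-bundling protein, was also higher in RNA in each zotatifin tumour, by 0.15 ± 0.12. ASPM, a spindle pole protein, had an RNA change of -0.29 ± 0.14, and ANLN (anillin), HMMR and DLGAP5 had RNA changes between -0.076 and 0.062. Footprints of DLGAP5, a microtubule-associated protein, had a change of -0.25 ± 0.14.

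Condensin folds mitotic chromosomes, TOP2A untangles DNA strands, and MKI67 coats chromosomes and marks dividing cells. None of these 7 genes was called by edgeR. At an unadjusted p under 0.05 there were 0 in footprints, 1 in RNA and 0 in TE, beside 22.1%, 18.3% and 15.3% of all genes. MKI67 (chr10:128096659-128126423) had footprints of 217, 213 and 235 CPM with vehicle and 281, 190 and 307 CPM with zotatifin. Zotatifin 2 was the lowest tumour of all and the others of its group were the highest (change 0.25 ± 0.13, adjusted p = 0.248). Without zotatifin 2 the footprints of MKI67 rose by 0.42 (adjusted p = 0.0207), the one call among 12 alternatives that went up to 0.718. Its RNA was 646, 539 and 621 CPM against 652, 407 and 644 CPM. The log2 ratio was -1.57, -1.34 and -1.40 with vehicle and -1.22, -1.10 and -1.07 with zotatifin, which did not overlap (TE 0.36 ± 0.23, adjusted p = 0.477, and 0.0649 with the tumour as a block). TOP2A (chr17:40388525-40417896) overlapped in both assays, with footprints of 591, 525 and 501 CPM against 568, 407 and 605 CPM (-0.023 ± 0.12) and RNA of 205, 197 and 179 CPM against 202, 164 and 215 CPM (0.00096 ± 0.13). The condensin core consists of SMC2 and SMC4. SMC4 RNA was 122, 126 and 113 CPM with vehicle and 103, 71.6 and 109 CPM with zotatifin (-0.35 ± 0.14, adjusted p = 0.188), lower in every zotatifin tumour, while its footprints overlapped (0.021 ± 0.12). SMC2 had an RNA change of 0.14 ± 0.13 and a footprint change of -0.13 ± 0.11. The non-SMC subunits NCAPD2, NCAPG and NCAPH had footprint changes of 0.17, -0.096 and 0.013.

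The ratio of footprints to RNA differed far more between the genes than between treatments. With vehicle the median log2 ratio of the 46 genes was 0.59, against -0.19 for the 9454 genes tested, and 37 of 46 lay above the median gene. The ratio is per transcript and is not corrected for how much of a transcript each assay counted. CDK1 stood highest at 2.70, 2.20 and 2.55 in the vehicle tumours (percentile 98.2 of all genes), followed by DLGAP5, CCNB1, NDC80, NUF2, TOP2A and SPC25, which with it made up the 7 genes in the top decile. FOXM1 stood lowest at -3.62, -3.48 and -3.19 (percentile 0.741), the only gene of the 46 in the bottom decile. MKI67 was also low (percentile 18.1). From lowest to highest the mean ratios spanned 60.2-fold. Neighbours in the order overlapped: DLGAP5 had 2.03, 1.61 and 1.54, CCNB1 1.81, 1.62 and 1.66, and NDC80 1.75, 1.71 and 1.52. CDK1 stood above these in every vehicle tumour, and FOXM1 below every other gene.

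**Figure D4:**
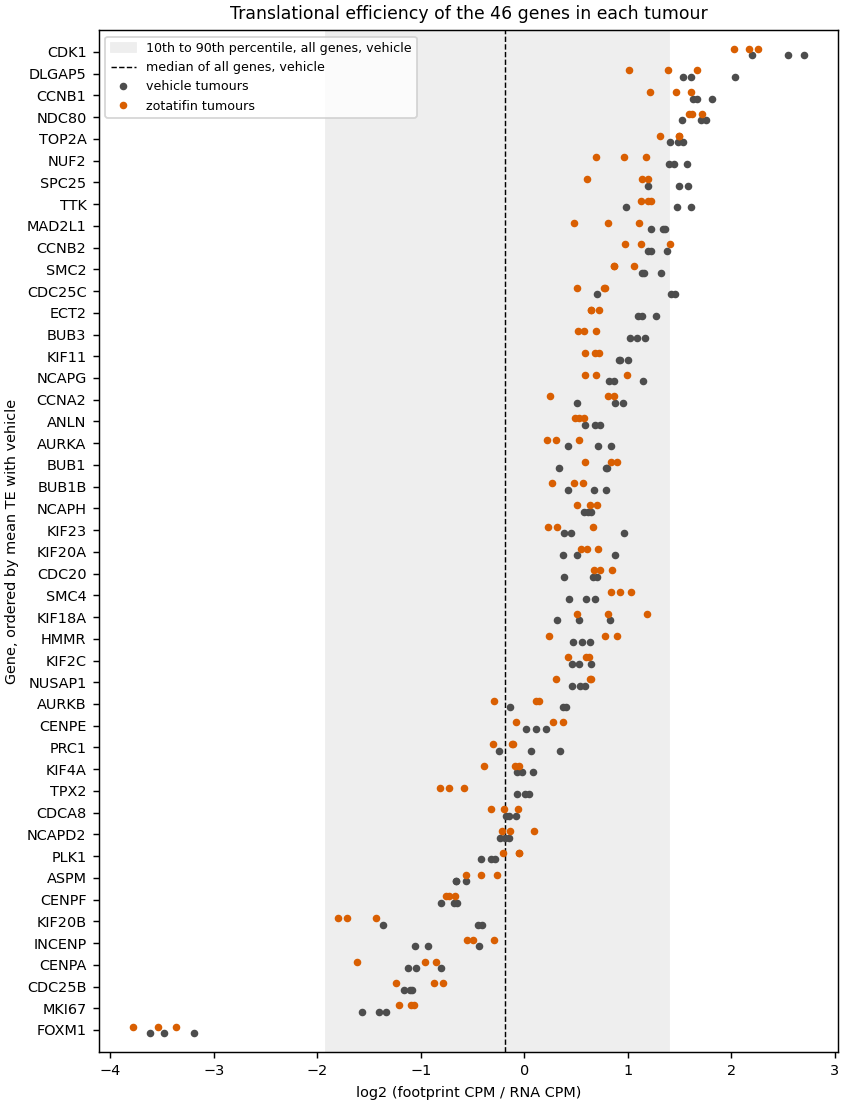
Log2 ratio of footprint CPM to RNA CPM in each tumour for the 46 genes, ordered by the mean of the 3 vehicle tumours (grey), with zotatifin tumours in orange, the median of all genes with vehicle as a dashed line and their 10th to 90th percentile as a band. CDK1 lies at the top (2.20 to 2.70 with vehicle) and FOXM1 far below the band (-3.62 to -3.19), while TPX2 shows the widest gap between treatments without overlap.

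Tumours of the same treatment also differed from each other. Tumour zotatifin 2 had the lowest footprint depth and the lowest median footprint level of the 46 genes. The median gene of the 46 stood at -0.22 in its footprints, relative to the vehicle mean on the log2 scale, and at 0.016 and 0.088 in zotatifin 1 and zotatifin 3. In RNA the values were -0.013, against 0.062 and 0.13, and the lowest was vehicle 3 at -0.085. The following pattern was chosen after the values were seen. In both assays zotatifin 2 was the lowest of the 6 tumours for 9 genes (19.6%, beside 8.55% of all genes): CDC25B, CENPE, CENPF, ANLN, ASPM, HMMR, SMC4, TOP2A and MKI67. For CENPF, a kinetochore and nuclear envelope protein, footprints were 268, 217 and 258 CPM with vehicle and 240, 153 and 274 CPM with zotatifin, and RNA 421, 377 and 413 CPM and 397, 259 and 437 CPM. Zotatifin 2 thus held 0.596 times the mean of the other zotatifin tumours in footprints and 0.62 times in RNA. The corresponding values were 0.514 and 0.677 for CENPE and 0.647 and 0.628 for MKI67. In the vehicle group, vehicle 3 was the lowest of all in both assays for 6 genes (13%, beside 4.07%). No gene of the 46 was lowest in both assays in vehicle 1, vehicle 2, zotatifin 1 or zotatifin 3, beside 6.13%, 1.73%, 1.83% and 3.54% of all genes. Footprints and RNA come from separate libraries of a lysate, and the correlation of their deviations from the treatment means over the 6 tumours had a median of 0.52 for the 46 genes and exceeded 0.8 for 15 of them. These are descriptions of 6 points that share a lysate in pairs. This correlation was not computed for the other genes, so it is not shown to be particular to the 46.

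**Figure D5:**
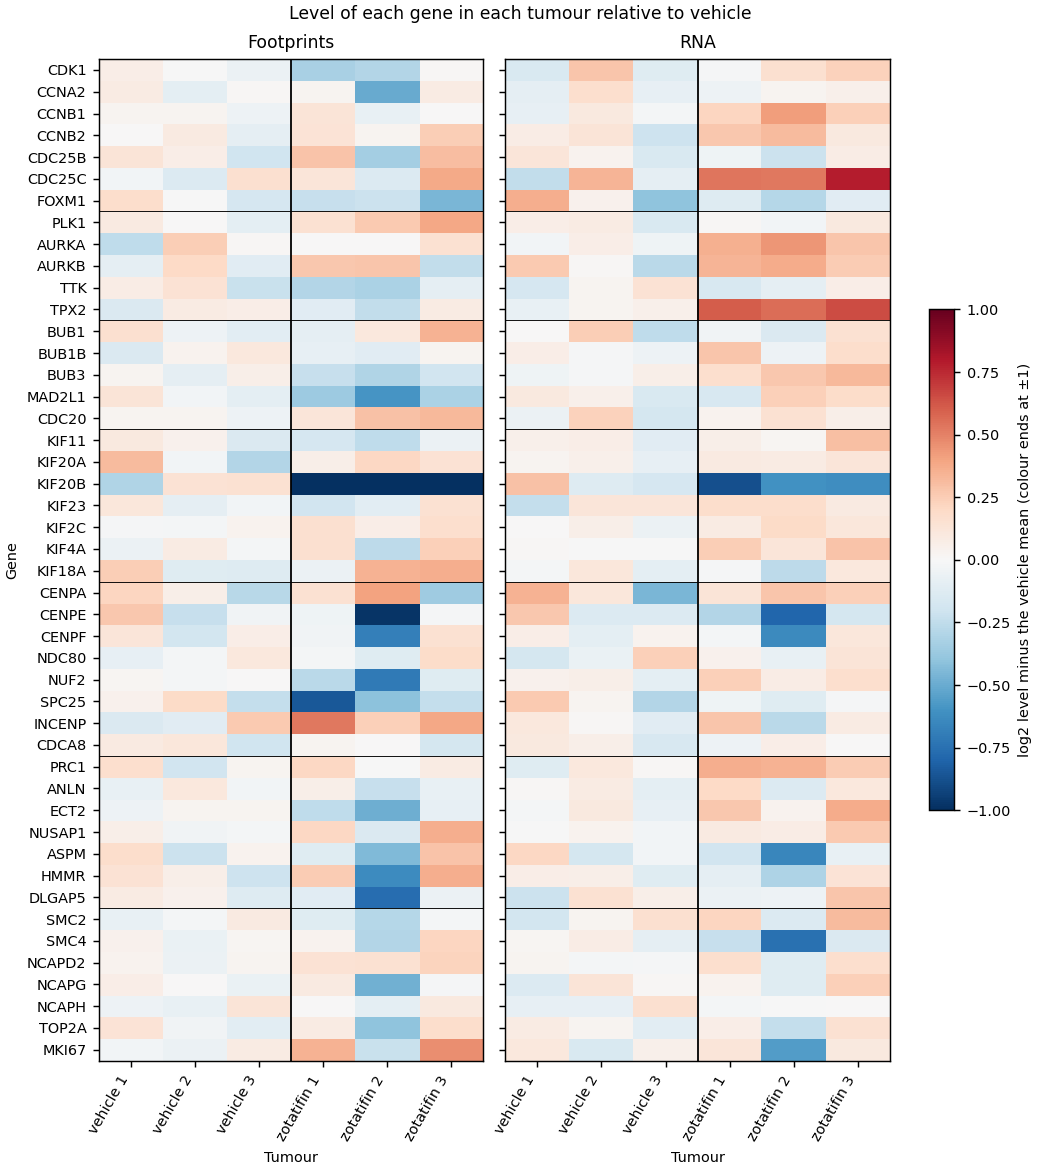
Level of each of the 46 genes in each tumour, as log2 of the CPM minus the vehicle mean, for footprints (left) and RNA (right), with lines between roles and colour ending at 1 in both directions. The column of zotatifin 2 is the bluest in footprints, with a median of -0.22, and TPX2 and CDC25C are red in the RNA of all zotatifin tumours.

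Other genes of mitosis were listed by complex (cohesin, the anaphase-promoting complex, further kinetochore, spindle and condensin proteins and entry regulators). Of 112 tested, 1 rose (KIF22, a chromokinesin, 0.40 ± 0.11) and 3 fell in footprints, beside 3.22% and 3.92% of all genes. The 3 were CENPK (-0.60 ± 0.17), ARPP19 (-0.49 ± 0.14), a phosphatase inhibitor of mitotic entry, and HAUS1 (-0.50 ± 0.15), an augmin subunit. DESeq2 called none of these 4. In RNA, CENPL (0.74 ± 0.18) and HAUS4 (0.51 ± 0.13) rose and KIF18B (-0.57 ± 0.14) fell, beside 0.808% and 0.907% of all genes. In TE, KIF18B, a motor of astral microtubules, rose by 1.14 ± 0.26 (adjusted p = 0.0191), beside 0.476% of all genes. With the tumour as a block, CCNF rose in addition and HAUS1, CENPN and CENPK fell. In that fit 3.62% of all genes rose and 5.05% fell. The medians of the 112 were -0.0032 in footprints, 0.026 in RNA and -0.022 in TE.

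The 40 genes of DNA replication and S phase, which mark the preceding stage of the cycle, gave medians of -0.014 in footprints, 0.10 in RNA and -0.11 in TE. CDT1 (0.62 ± 0.14), the licensing factor, and POLD1 (0.62 ± 0.14), a DNA polymerase subunit, rose in footprints, beside 3.22% of all genes. GINS1, a subunit of the replicative helicase, fell in footprints (-0.72 ± 0.14) and in TE (-0.93 ± 0.19, adjusted p = 0.00711). Of all genes, 3.92% fell in footprints and 1.22% in TE. None of the 40 was called in RNA by edgeR, and DESeq2 called 1. In RNA 8 had an unadjusted p under 0.05, beside 18.3% of all genes. With the tumour as a block, TE rose for 3 of the 40 and fell for 2, beside 3.62% and 5.05% of all genes.

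The changes of the 41 genes with a promoter window can be set beside the motifs. The 32 genes with a CHR match had median log2 changes of -0.027 in footprints, 0.067 in RNA and -0.11 in TE. The 9 without one had 0.084, 0.0018 and 0.036. For CCAAT the footprint and TE medians were ordered the other way, with 0.054, 0.064 and -0.050 in the 32 genes with a match and -0.073, 0.062 and -0.11 in the 9 without. The first 50 transcribed bases had a median purine share of 54.0% (all genes 52%) and a longest purine run of 5 bases (all genes 5). Across the 41 genes, Spearman's rho of the TE change with the longest purine run was -0.10, and across 7632 genes it was -0.13. With the footprint change, rho was -0.24 for the purine run (all genes -0.082) and 0.40 for the GC share of these bases (all genes 0.047), over 41 and 7682 genes. These were among 9 such relations computed for the 41 genes. Genes are not independent replicates, and the RefSeq start may differ from the one used in 22Rv1.

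In the authors' deposited table of RNA changes, TPX2 was the one gene of the 46 under an adjusted p of 0.05 (log2 change 0.61, adjusted p = 1.2e-05), beside 2.47% of 12661 genes. The authors' deposited table of translational efficiency, whose model is not stated, lists 4 of the 46 as higher (PLK1, SMC4, NCAPD2 and MKI67) under a false discovery rate of 0.05. That authors' deposited table has 11 lower: CDK1, CCNB1, CDC25C, TPX2, BUB3, MAD2L1, KIF11, NUF2, PRC1, ECT2 and SMC2. Of all 11446 rows in the authors' deposited table, 18.3% pass that threshold. The 5 genes whose TE fell in the fit with the tumour as a block are all among these 11. Both sets of estimates come from the same libraries, so this overlap is not independent evidence.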

How the data were processed

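Ribosome footprints (monosome fractions after RNase T1 and RNase A) and stranded total RNA were sequenced from xenograft lysates. The authors deposited raw counts per transcript for each library, per the file headers, and tables of their own comparisons: log2 changes, Wald scores and p-values from DESeq2 for RNA, normalised signal per library, and translational efficiency estimates whose values match a natural log scale. The submitters' processing notes name cutadapt 2.3, UMI-tools, Bowtie2 2.3.5, DESeq2 and hg38. Groups came from the titles, since per the labels the treatment field contradicts the title in 6 of 12 samples. A code number in the count columns was read as zotatifin. No columns were left without a sample.

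Counts were tested with edgeR 4.0.16 (R 4.3.3): filterByExpr (minimum count 10, minimum total 15), TMM factors, glmQLFit and glmQLFTest, Benjamini-Hochberg adjustment over all genes tested, threshold 0.05. TE was the assay-by-treatment interaction over 12 libraries, with TMM within each assay. A call sets the difference between groups of 3 tumours against a spread that is moderated over all genes. The main TE fit treated the 12 libraries as independent. The same code was tested on simulated counts drawn independently for each library. The shared lysate of a tumour was not simulated, so that test does not cover the pairing. Levels are CPM on TMM-scaled library sizes. Alternatives used DESeq2 1.42.0 and limma 3.58.1.

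The pairing was checked over 4889 genes with a mean count of at least 50. Footprint and RNA deviations of the same tumour correlated at 0.217 to 0.44, and those of other tumours at -0.381 to 0.119. For this reason a fit with the tumour as a block was run for TE beside the main fit, which has no block. The pairing comes from the protocol, by which both assays used the same lysate. Across treatments, same-numbered tumours correlated at -0.0946 to 0.0527 in footprints and -0.0322 to 0.181 in RNA. Tumours of different numbers correlated at -0.0747 to 0.148 and -0.196 to 0.169, which overlaps. With 3 same-numbered pairs per assay, this check cannot exclude a pairing of treatments. No label states one.

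The members and lists were chosen with earlier results of these data known. All 46 genes are named. Full values are given for genes called in any comparison, the 5 with the smallest p in each comparison, and CDK1, CCNB1, PLK1, AURKA, MKI67 and TOP2A. Gene positions are RefSeq's on GRCh38.p14, the build named hg38 in the notes. Listed CLASP1 and CLASP2 were not matched. Coding length and protein sequence were not used here, so levels are not compared between genes per length.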

Additional observations from a re-analysis of the deposited data

How the results depend on the processing

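Over the alternatives tried (RLE or upper-quartile factors, DESeq2, no low-count filter, a minimum count of 30, the replicate block, limma on the log2 ratio of each tumour, and leaving out each tumour), the medians of the 46 genes kept the direction in RNA (0.033 to 0.12 without a tumour) and TE (-0.11 to -0.043). The footprint median lay between -0.082 and 0.064 without a tumour, and between -0.02 and 0.011 otherwise. Footprint calls among the 46 went from 2 to 1 with DESeq2, which gave no adjusted p for KIF20B, and to 1 at a minimum count of 30, where KIF20B was not tested, with a range of 0 to 1 without a tumour. RNA calls went from 1 to 2 with no filter and with the replicate block over treatments, CDC25C being added (adjusted p = 0.0311 and 0.0437), and ranged from 0 to 2 without a tumour. TE calls went from 1 to 5 with the tumour as replicate block and to 0 with limma (TPX2 adjusted p = 0.100; 11 calls over all genes), and ranged from 0 to 1 without a tumour. Over all genes, footprint calls were 681, 416 with DESeq2 and 185 to 726 without a tumour. RNA calls were 225, 624 with no filter, 527 with the replicate block and 11 to 396 without a tumour, and TE calls were 160, 819 with the tumour as replicate block and 56 to 132 without a tumour. The replicate block over treatments gave 796 footprint calls over all genes and the same 2 among the 46, MAD2L1 and KIF20B, and it changed no other call of a gene named here.

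The direction of TOP2A is not settled. Its RNA change was -0.0056 with RLE factors, -0.00044 with upper-quartile factors, -0.0079 at a minimum count of 30 and -0.0061 with the replicate block. Its TE change was -0.011 with upper-quartile factors, -0.017 with DESeq2, -0.033 with no filter, -0.0050 with the replicate block and -0.012 with limma. Without a tumour, TOP2A ranged from -0.14 to 0.13 in footprints, -0.0802 to 0.11 in RNA and -0.038 to 0.046 in TE. AURKA and CCNB1 ranged from -0.072 to 0.19 and -0.033 to 0.071 in footprints, and PLK1 and MKI67 from -0.046 to 0.072 and -0.198 to 0.11 in RNA. Except where a filter or a missing adjusted p is named, the cause was not tested. Depth limits KIF20B, with 3, 2 and 4 footprint counts in the zotatifin tumours.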
